A study of Mus musculus with 6 samples.

Results

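The genes described are 10 basic helix-loop-helix (bHLH) and related transcription factors of neuronal differentiation: the NEUROD factors Neurod1, Neurod2 and Neurod6, the NHLH factors Nhlh1 and Nhlh2, the inhibitors Id1, Id2, Id3 and Id4, and the E protein Tcf4. They are 10 of the 22180 genes tested. They were chosen by name, and each was read from its only probe set annotated to exactly 1 gene symbol. Expression was measured in cerebellum of mice at postnatal day 7, on 6 arrays. The 3 wild-type arrays hold Math1Cre mice with wild-type Crebbp, and the 3 knockout arrays hold Math1Cre::CrebbpFl/Fl mice, so Cre is present in both groups and the floxed Crebbp alleles only in the knockout. Cre is driven by Math1 (Atoh1), a gene of the granule neuron precursor lineage, while whole cerebellum also holds glia, Purkinje cells, interneurons, vessels and membranes of other lineages. The labels do not state that every array had its own animal. P-values therefore cover only the spread among these 6 samples, which may be technical. In whole tissue, fewer cells of a type and less RNA per cell cannot be told apart.

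bHLH factors bind DNA as dimers. Tissue-restricted members such as the NEUROD and NHLH factors pair with broadly expressed E proteins such as TCF4 and bind a short site called the E-box. The ID proteins keep the helix-loop-helix part but lack the basic part that contacts DNA, so they tie up E proteins in pairs that cannot bind, and they are classic targets of BMP signalling. In the cerebellum, precursors that express Atoh1 divide in the outer layer, and NEUROD and NHLH factors come on as their daughters leave the cycle, migrate and mature. CREBBP acetylates histones and other proteins on lysine and serves CREB and many further transcription factors, bHLH factors among them, as a coactivator.

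Crebbp itself was lower on every knockout array. It read 11.96, 11.99 and 11.90 in wild type and 11.46, 11.42 and 11.32 in knockout, a change of -0.56 (SE 0.05, limma adjusted p = 0.000354). Whether its probes lie in the deleted part is not stated. Across probe sets, arrays of the same group correlated at 0.990 to 0.992, and array medians were 7.25 to 7.29.

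Of the 10 genes, 5 fell, 1 rose and 4 did not pass in the knockout. The 3 NEUROD genes, Nhlh1 and Tcf4 fell and Id3 rose, by 1.14-fold to 1.51-fold. Among these, the call of Neurod1 rests on a probe set whose target is uncertain, as described below. The threshold was a limma adjusted p of 0.05, with Benjamini-Hochberg adjustment over all 22180 genes, and genes that missed it are said neither to rise nor to fall. Among all genes tested 6.67% passed, 2.72% upward and 3.94% downward. The values of 9 of the 10 genes did not overlap between the groups, against 25% of all genes. Each change is the knockout mean less the wild-type mean in log2 units, with its standard error (SE) from the fit. The median change of the 10 genes was -0.15, and that of all genes was close to 0 at -0.00275.

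Sequences upstream of the members were searched for elements that bHLH factors and CREB can recognise. Of the 10 genes, 8 were searched, with sequences from RefSeq's promoter table (GRCm38.p6). Id1 and Tcf4 were not searched. The 250 bases before the start of 3 genes that fell and of the 1 that rose are printed 5′ to 3′ along the gene, with E-boxes (CANNTG) and CRE cores (TGACG, or CGTCA on the other strand) in capitals. Neurod2 lies on the minus strand at chr11:98329646-98329895, Neurod6 on the minus strand at chr6:55681264-55681513, Nhlh1 on the minus strand at chr1:172057597-172057846 and Id3 on the plus strand at chr4:136143572-136143821.
Neurod2: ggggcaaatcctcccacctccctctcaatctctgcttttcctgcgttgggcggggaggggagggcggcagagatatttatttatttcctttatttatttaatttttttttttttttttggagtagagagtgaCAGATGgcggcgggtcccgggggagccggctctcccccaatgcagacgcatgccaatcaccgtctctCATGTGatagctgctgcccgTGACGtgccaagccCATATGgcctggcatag
Neurod6: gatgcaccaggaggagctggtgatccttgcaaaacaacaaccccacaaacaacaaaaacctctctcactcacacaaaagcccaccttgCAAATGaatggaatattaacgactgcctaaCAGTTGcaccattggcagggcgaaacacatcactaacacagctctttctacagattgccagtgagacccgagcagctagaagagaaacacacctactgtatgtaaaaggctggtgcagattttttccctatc
Nhlh1: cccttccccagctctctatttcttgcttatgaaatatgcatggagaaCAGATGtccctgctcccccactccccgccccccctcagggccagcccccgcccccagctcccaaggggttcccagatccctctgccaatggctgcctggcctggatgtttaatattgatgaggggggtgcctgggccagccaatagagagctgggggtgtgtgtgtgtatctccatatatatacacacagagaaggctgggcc
Id3: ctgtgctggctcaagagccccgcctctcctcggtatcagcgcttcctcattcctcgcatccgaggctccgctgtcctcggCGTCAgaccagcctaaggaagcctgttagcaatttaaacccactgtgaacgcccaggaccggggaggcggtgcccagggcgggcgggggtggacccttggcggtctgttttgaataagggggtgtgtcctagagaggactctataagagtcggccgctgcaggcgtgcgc

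Both strands were searched, and of 32851 upstream sequences of the same length in that collection, 66.2% held an E-box, 14.4% the NEUROD-type E-box CAGATG, 17.8% the CRE core and 1.55% the full CRE site TGACGTCA. CAGATG is one form of CANNTG, so the first shares overlap, and the full CRE holds the core. Neurod2 had 3 E-boxes, of which 1 was CAGATG, and 1 CRE core 27 to 31 bases before the start. Neurod6 had 2 E-boxes and Nhlh1 had 1, which was CAGATG, 198 to 203 bases before the start. Nhlh2, which did not pass, had 2 E-boxes, 1 of them CAGATG, and Neurod1 had 1. Among the ID genes searched, Id2 had 1 E-box, while Id3 and Id4 had 0 E-boxes and 1 CRE core each. None of the 8 genes held the full CRE in this window. A match describes the letters in these windows and is no measure of binding.

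Neurod2, a factor of differentiated granule neurons, had the smallest p of the 10 genes. Its log2 values were 11.61, 11.78 and 11.52 in wild type and 11.27, 11.24 and 11.23 in knockout. All knockout arrays lay below all wild-type arrays, and they lay close together. The mean went from 11.64 ± 0.13 to 11.24 ± 0.02 (SD, n = 3 each), a change of -0.39 (SE 0.06, limma adjusted p = 0.00643), which is 1.31-fold lower with a 95% confidence interval of 1.19-fold to 1.45-fold. Neurod2 passed whichever array was left out.

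Neurod6, best known as a factor of forebrain projection neurons, had the largest change of the 10. It read 8.60, 8.78 and 8.69 in wild type and 8.12, 8.29 and 7.88 in knockout, so the groups did not overlap and the knockout arrays were the more spread out. The mean went from 8.69 ± 0.09 to 8.10 ± 0.21 (SD, n = 3 each), a change of -0.59 (SE 0.10, limma adjusted p = 0.00792), which is 1.51-fold lower with a 95% confidence interval of 1.29-fold to 1.76-fold. Neurod6 passed whichever array was left out. Of 6 listed markers of forebrain excitatory neurons, 4 were measured, and 0 passed in limma, with 0 at an unadjusted p under 0.05. Their mean was 5.91 to 5.96 on the wild-type arrays and 5.84 to 5.94 on the knockout arrays. That list mean lay under the 25th percentile of all deposited values (6.02), but in wild type only Emx2 did so. By gene, the wild-type means were 6.62 for Emx1, 6.12 for Tbr1, 6.04 for Fezf2 and 4.97 for Emx2. The knockout means were 6.50, 5.81, 6.16 and 5.02 in the same order.

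Neurod1 drives the differentiation of granule neurons and is needed for their survival. Its probe set read 9.07, 8.96 and 8.67 in wild type and 8.19, 8.46 and 8.51 in knockout. The groups did not overlap, but the lowest wild-type and highest knockout values were close to each other. The mean went from 8.90 ± 0.20 to 8.39 ± 0.17 (SD, n = 3 each), a change of -0.51 (SE 0.11, limma adjusted p = 0.0245), which is 1.43-fold lower with a 95% confidence interval of 1.20-fold to 1.69-fold. The call was lost without wild-type replicate 1 (change -0.43, limma adjusted p = 0.108), wild-type replicate 2 (-0.48, 0.0907) or knockout replicate 1 (-0.41, 0.0738).

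What this Neurod1 probe set reads is uncertain. In the order of probe set numbers, the 10 nearest probe sets with 1 gene of known strand all belong to chromosome 2, where Neurod1 lies, but 0 of the 10 belong to genes on the strand of Neurod1. Among 18012 probe sets checked in this way, 89.0% had at least 9 of 10 neighbours on their own gene's strand, and 3.06% had at most 1. For the other 7 genes of the set that could be checked, the number was 8 to 10. The labels and tables do not state which strand the probes target. A brighter probe set, annotated to both Neurod1 and Cerkl, had 9 of 10 neighbours on the strand of Neurod1. It read 12.41, 12.42 and 12.36 in wild type and 12.13, 12.09 and 12.22 in knockout, again without overlap. Its mean went from 12.40 ± 0.03 to 12.15 ± 0.07 (SD, n = 3 each), a change of -0.25 (SE 0.05), which is 1.19-fold lower. Put in the place of the Neurod1 row, it passed (limma adjusted p = 0.0126), while tested with all 41345 probe sets it did not (limma adjusted p = 0.0527). Because it is shared, this value cannot be given to either gene.

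**Figure D1:**
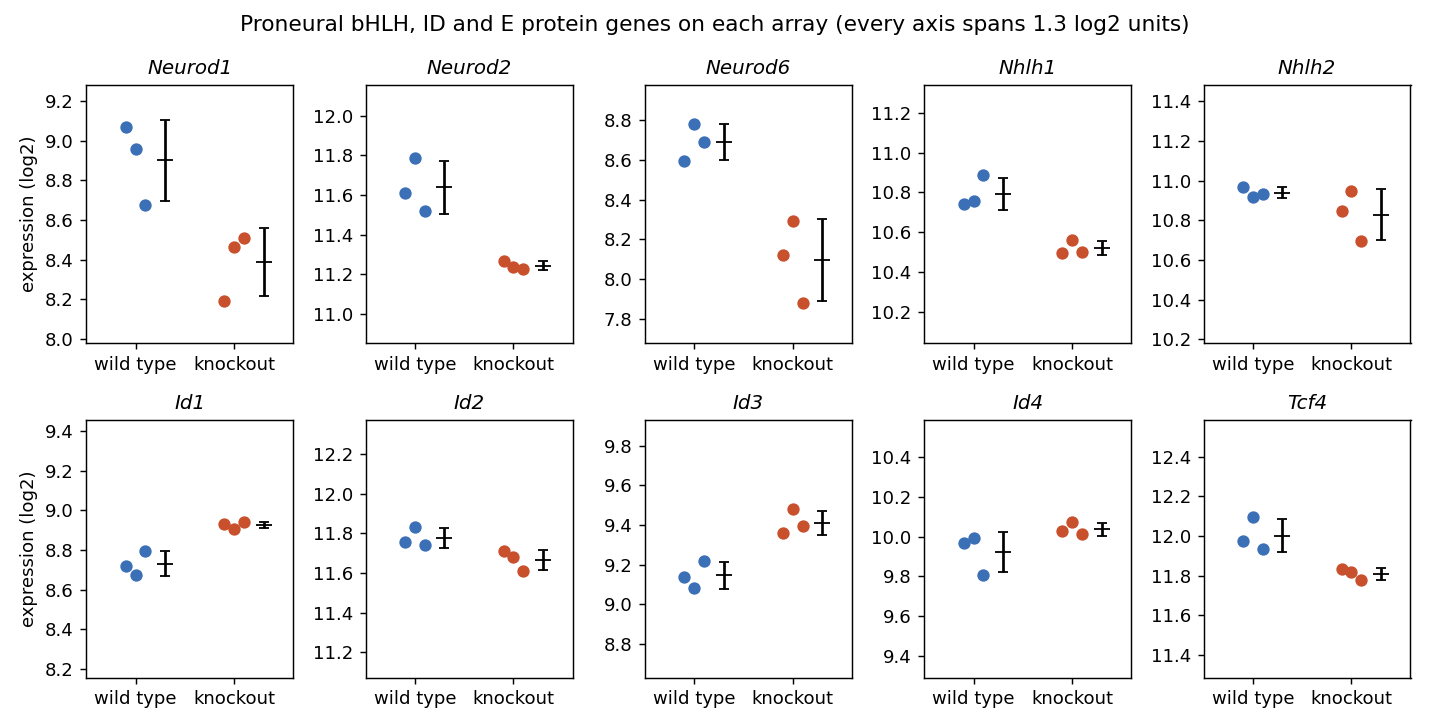
Log2 expression (y axis, spanning 1.3 log2 units in every panel) of each of the 10 genes on the 3 wild-type arrays (blue) and the 3 knockout arrays (red), with the mean and SD in black. The NEUROD genes, Nhlh1 and Tcf4 lie lower on all knockout arrays, Id1, Id3 and Id4 lie higher on all of them, Id2 lies lower, and the groups overlap for Nhlh2.

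Nhlh1, which is switched on as granule neuron precursors leave the cell cycle, fell less than Neurod2 and Neurod6 in point estimate. Against Neurod1 the order depends on the probe set, at -0.51 for its own and -0.25 for the one shared with Cerkl. Its values were 10.74, 10.75 and 10.89 in wild type and 10.50, 10.56 and 10.50 in knockout, with no overlap. The mean went from 10.79 ± 0.08 to 10.52 ± 0.04 (SD, n = 3 each), a change of -0.28 (SE 0.05, limma adjusted p = 0.0132), which is 1.21-fold lower with a 95% confidence interval of 1.12-fold to 1.31-fold. Without knockout replicate 1 the change was -0.26 and the limma adjusted p 0.0514. Its closest relative Nhlh2 read 10.97, 10.92 and 10.93 in wild type and 10.85, 10.95 and 10.69 in knockout. Knockout replicate 2 lay among the wild-type arrays. Nhlh2 did not pass, with a change of -0.11 (SE 0.06, limma adjusted p = 0.379, 95% confidence interval -0.25 to 0.03). Whether the 2 NHLH genes differ in their change was not tested.

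Among the ID genes, Id3 rose. It read 9.14, 9.08 and 9.22 in wild type and 9.36, 9.48 and 9.39 in knockout, without overlap. The mean went from 9.15 ± 0.07 to 9.41 ± 0.06 (SD, n = 3 each), a change of 0.26 (SE 0.06, limma adjusted p = 0.0263), which is 1.20-fold higher with a 95% confidence interval of 1.10-fold to 1.31-fold. The call was lost without wild-type replicate 1 (change 0.26, limma adjusted p = 0.103) or wild-type replicate 2 (0.23, 0.0911). It was also lost without knockout replicate 1 (0.29, 0.0508) or knockout replicate 2 (0.23, 0.0722).

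The other 3 ID genes did not pass. Id1, the ID gene most closely tied to BMP signalling, read 8.72, 8.67 and 8.80 in wild type and 8.93, 8.91 and 8.94 in knockout. All knockout values were higher and nearly equal, and the change was 0.20 (SE 0.06, limma adjusted p = 0.0686, 95% confidence interval 0.07 to 0.32). Id4, an ID gene of neural precursors and astrocytes, read 9.97, 9.99 and 9.81 in wild type and 10.03, 10.07 and 10.01 in knockout, a change of 0.12 (SE 0.06, limma adjusted p = 0.310, 95% confidence interval -0.01 to 0.24). Id2, widely expressed in neural tissue, read 11.76, 11.83 and 11.74 in wild type and 11.71, 11.68 and 11.61 in knockout. It was the one ID gene with lower knockout values, with a change of -0.11 (SE 0.05, limma adjusted p = 0.210, 95% confidence interval -0.21 to -0.00763).

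Tcf4, an E protein and a dimer partner of the NEUROD and NHLH factors that ID proteins bind, read 11.97, 12.10 and 11.94 in wild type and 11.83, 11.82 and 11.78 in knockout. All knockout arrays lay below the wild-type arrays. The mean went from 12.002 ± 0.08 to 11.81 ± 0.03 (SD, n = 3 each), a change of -0.19 (SE 0.05, limma adjusted p = 0.0478), which is 1.14-fold lower with a 95% confidence interval of 1.06-fold to 1.24-fold. The call stood close to the threshold: of the fits that left out 1 array, Tcf4 passed only in that without wild-type replicate 3, and the adjusted p of the others reached 0.133. The other E protein genes, Tcf3 and Tcf12, named here after their values were seen, changed by -0.12 (limma adjusted p = 0.363) and 0.06 (limma adjusted p = 0.560) and did not pass.

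**Figure D2:**
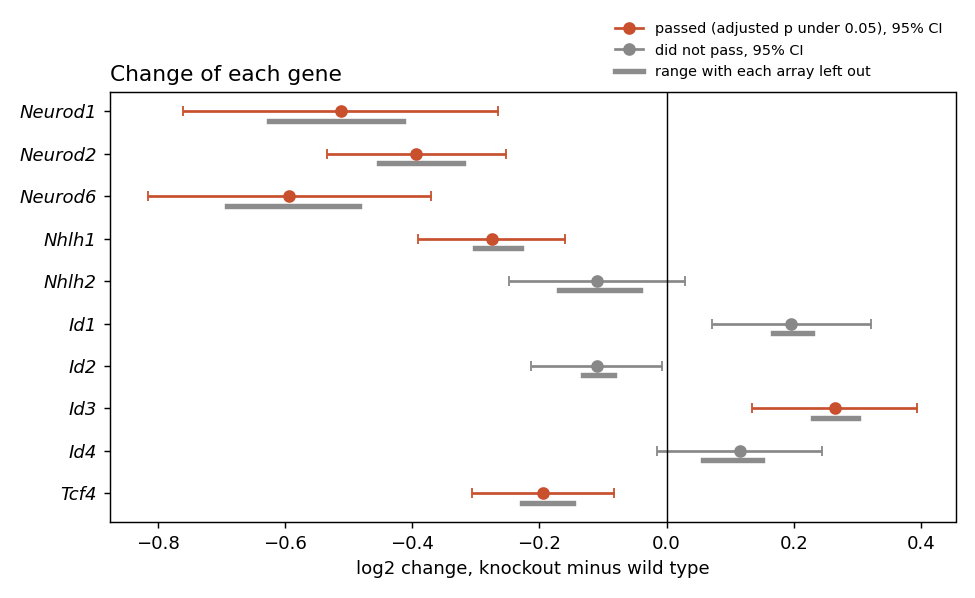
Log2 change of each gene (x axis, knockout minus wild type) with its 95% confidence interval, red where the gene passed and grey where it did not, and below it a bar for the range with each array left out in turn. Changes run from -0.59 for Neurod6 to 0.26 for Id3, and only the intervals of Nhlh2 and Id4 include 0.

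Other bHLH activators and partners did not move one way. Of 18 listed genes 16 were measured, and 1 rose, 2 fell and 13 did not pass, with a median change of -0.03. Neurod4, a NEUROD family relative that acts in early neuronal differentiation, fell: it read 7.96, 8.12 and 8.21 in wild type and 7.32, 7.51 and 7.31 in knockout, a change of -0.71 (SE 0.09, limma adjusted p = 0.00191). Neurod4 passed whichever array was left out. Atoh1, the bHLH factor of the precursor state, rose: it read 9.68, 9.74 and 9.64 in wild type and 10.34, 10.12 and 10.14 in knockout, a change of 0.52 (SE 0.06). Olig3, a factor of dorsal progenitors, fell by 0.73 (SE 0.18, limma adjusted p = 0.0372) from a mean of 6.33 close to the 25th percentile of deposited values (6.02). Olig3 passed in 2 of the 6 fits that left out 1 array, those lacking wild-type replicate 2 or knockout replicate 1 (adjusted p up to 0.117 in the others). Olig1, an oligodendrocyte lineage factor, changed by -0.53 and did not pass (limma adjusted p = 0.105). With 1 array left out its change ran from -0.70 to -0.29, and it passed when knockout replicate 2 was the one left out (limma adjusted p = 0.0288).

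Most HES and HEY proteins are bHLH repressors that hold back proneural genes, and several of them act downstream of Notch. Of 7 HES and HEY genes measured, 2 rose, 0 fell and 5 did not pass (median 0.06, or -0.0053 without knockout replicate 2). Hey1 read 11.36, 11.33 and 11.27 in wild type and 11.64, 11.60 and 11.51 in knockout, a change of 0.27 (SE 0.05, limma adjusted p = 0.0125). It missed the threshold when knockout replicate 1 was left out (limma adjusted p = 0.0514). Hes3 rose by 0.42 (SE 0.09, limma adjusted p = 0.0207), and it too passed in 2 of the 6 fits with 1 array left out, those lacking wild-type replicate 2 or knockout replicate 1 (adjusted p up to 0.0928 in the others). Hey2 and Hes5 had changes of 0.14 and 0.06 and did not pass (limma adjusted p = 0.199 and 0.761).

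BMP signalling switches on ID genes through SMAD proteins. Expression was read for 18 genes of its ligands, receptors, SMADs and antagonists, which is no measure of signalling activity. Of the 18 genes 1 rose, 1 fell and 16 did not pass (median -0.04). The ligand gene Bmp5 fell: it read 8.69, 9.29 and 8.92 in wild type and 8.15, 8.17 and 8.01 in knockout, a change of -0.86 (SE 0.13, limma adjusted p = 0.00423), and it passed whichever array was left out. The receptor gene Bmpr1b rose by 0.35 (SE 0.09, limma adjusted p = 0.0481), but of the 6 fits with 1 array left out it passed in 2, those lacking wild-type replicate 2 or knockout replicate 3 (adjusted p up to 0.179 in the others). The ligand gene Bmp4 changed by 0.32 and the effector gene Smad1 by -0.26, and neither passed (limma adjusted p = 0.0585 and 0.0619).

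**Figure D3:**
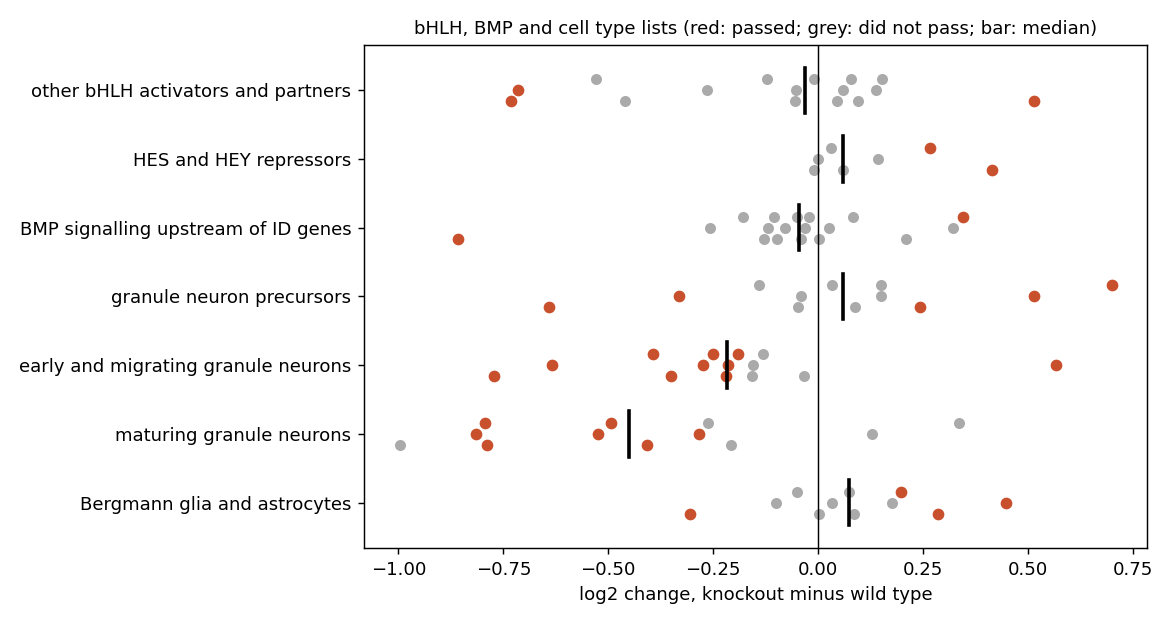
Log2 change (x axis) of each measured gene in 3 lists of bHLH and BMP genes and 4 cell type lists, red where the gene passed and grey where it did not, with the list's median as a black bar. The medians are -0.03, 0.06 and -0.04 for the bHLH, HES and HEY and BMP lists, and -0.22 and -0.45 for early and maturing granule neurons.

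Markers of the granule lineage and of other cells moved beside these genes, and their part in the results was not tested. Of 12 markers of maturing granule neurons 7 fell and 0 rose (median -0.45), with a list mean of 10.17 to 10.41 on wild-type and 9.72 to 9.89 on knockout arrays. Of 14 of early and migrating granule neurons 9 fell and 1 rose (median -0.22), with means of 11.68 to 11.76 and 11.46 to 11.53. Only 3 of these early markers fell once wild-type replicate 1 was left out, and 5 fell once wild-type replicate 2 or either of knockout replicates 1 and 3 was. Of 12 precursor markers 3 rose and 2 fell (median 0.06), with means of 10.25 to 10.30 and 10.25 to 10.39. One and the same reading of Atoh1 is counted among the precursor markers that rose and among the bHLH activators and partners above. Leaving out 1 array gave 2 or 3 precursor markers that rose and, without wild-type replicate 1, 1 that fell, while their median lay at 0.0039 without knockout replicate 2 and at 0.15 without knockout replicate 3. Of 11 markers of Bergmann glia and astrocytes, cells that also express ID genes, 3 rose and 1 fell (median 0.07), with means of 10.70 to 10.75 and 10.74 to 10.86. The number of these glial markers that rose was 1 to 3 with 1 array left out, and it was 1 when wild-type replicate 1, wild-type replicate 3 or knockout replicate 2 was the one left out. No glial marker fell in those fits, except 1 without knockout replicate 1. Gfap, the astrocyte filament gene, rose by 0.45 (SE 0.07, limma adjusted p = 0.00459). Gdf10 rose by 0.20 and Gja1 by 0.29 (limma adjusted p = 0.0414 and 0.0419). Slc1a2 fell by 0.30 (limma adjusted p = 0.0393), and the other 7 glial markers did not pass. Gfap passed whichever array was left out, Gdf10 in 2 of the 6 such fits, and Gja1 and Slc1a2 in 1 each. Of 10 endothelial and pericyte markers 0 passed in limma, and 0 had an unadjusted p under 0.05 (median -0.01), with means of 9.31 to 9.40 and 9.34 to 9.36. Of 8 markers of meninges and fibroblasts 0 passed in limma and 5 had an unadjusted p under 0.05 (median 0.30), with means of 9.09 to 9.17 and 9.22 to 9.64. In this list 3 markers rose without knockout replicate 1 and 1 without knockout replicate 2, and the median was 0.17 without knockout replicate 3.

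Choroid plexus, which lies beside the cerebellum, differed between arrays more than any list above. The mean of its 8 measured markers was 7.28 to 8.02 in wild type and 7.31 to 9.65 in knockout, and 0 of them passed in limma, with 5 at an unadjusted p under 0.05 (median 0.97). Leaving out knockout replicate 2 made 7 of the 8 pass as higher in knockout (median 1.52), and leaving out knockout replicate 3 lowered the median to 0.56 with 0 passing in limma. Its secreted protein gene Ttr lay above 10 on 3 arrays, wild-type replicate 1 and knockout replicates 1 and 3. Without those arrays, in a fit with 1 knockout array that is assumed to vary like the wild-type arrays, none of the 10 genes passed in limma while 5 had an unadjusted p under 0.05, and 112 genes rose and 124 fell in all. The changes there were -0.41 for Neurod2, -0.44 for Neurod6, -0.35 for Neurod1, -0.26 for Nhlh1, 0.33 for Id3 and -0.20 for Tcf4. Nhlh2 turned from -0.11 to 0.025. In that fit 3 maturing and 2 early granule neuron markers fell (medians -0.40 and -0.17), and 1 glial marker rose. Of the precursor markers 1 rose and 1 fell (median 0.17). Of the bHLH activators and partners 1 fell and 0 rose, with Olig1 at -0.10, and of the BMP genes 1 fell and 0 rose, while no HES or HEY gene passed. With the mean of the choroid plexus markers as a covariate, Neurod2 (-0.38, limma adjusted p = 0.0466) and Neurod6 (-0.41, 0.0355) passed and the other 8 genes did not.

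**Figure D4:**
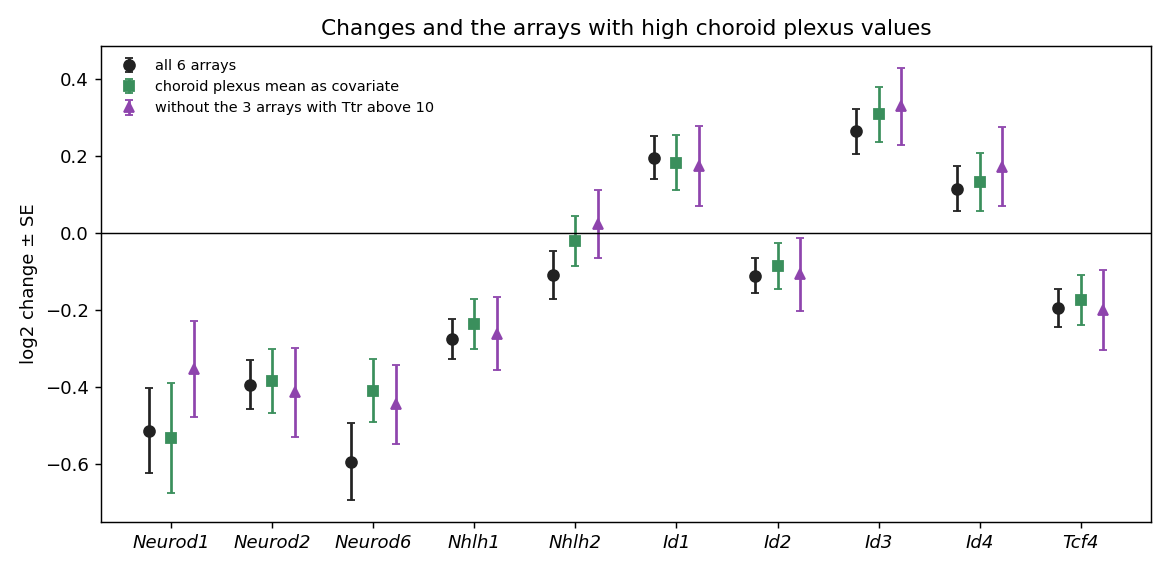
Log2 change ± SE (y axis) of each gene with all 6 arrays (black circles), with the choroid plexus marker mean added as covariate (green squares) and without the 3 arrays with Ttr above 10 (purple triangles). Apart from Nhlh2, every gene keeps its direction, and Neurod6 moves from -0.59 to -0.41 with the covariate.

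Over the 6 arrays, the named genes whose values followed Neurod2 most closely were Psd3, Kcnt1 and Alg2 (Pearson's r = 0.998, 0.997 and 0.997), and those that followed Id3 were Srprb, Casp6 and Olfr749 (r = 0.999, 0.994 and 0.994). These values are a description over 6 arrays of 1 tissue in 2 groups, and a difference shared between the groups raises them. They were also picked as the highest among the genes tested, so high values are no evidence of a link. Alg2 and Srprb did not pass (limma adjusted p = 0.126 and 0.0667), while the others did.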

How the data were processed

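RNA of 6 cerebellum samples was measured on 6 arrays. The deposited values are log2 expression levels, 1 for each probe set and array. Per the submitters' processing notes, RMA and oligo were used; their versions, the array design and any filter are not given in sources used here. RMA pulls arrays to a common distribution, so changes are relative to it. The values come with no measure of signal over background, and the number of arrays limits the precision.

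Of 41345 probe sets, GEO's platform annotation gives 1 symbol to 23521, several to 1814 and none to 16010. Where a gene had several of its own, the one brightest on average was kept, leaving 22180 genes. Symbols were checked against RefSeq's gene table (23328 found, 0 updated). The 2 groups were fitted on the deposited values with no further normalization, using limma 3.58.1 (lmFit and eBayes, the prior variance following mean brightness) under R 4.3.3. Tests were two-sided.

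The genes and the 16 pathway and cell type lists were chosen with earlier results of these data known. Genes named are Crebbp, the 10 genes described, in each list up to 4 with the smallest p, and the 3 genes most correlated with the leading gene in each direction (leaving out predicted and small RNA genes); others are said to be outside this rule. Alternatives are given in the closing section; the one that reads Neurod1 from a shared probe set was chosen after seeing the data. Tables and plots used Python 3.11.15, pandas 2.3.3 and matplotlib 3.10.9.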

Additional observations from a re-analysis of the deposited data

How the results depend on the processing

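Each of the 10 genes was refitted under 17 alternatives besides a change of threshold. Neurod2 kept its call in 15, Neurod6 in 16, Nhlh1 in 12, Neurod1 in 10, Id3 in 9 and Tcf4 in 7, and Nhlh2, Id1, Id2 and Id4 passed in 0. Directions held in all of these, except that Nhlh2 was 0.025 without the arrays with Ttr above 10. With 1 array left out, 199 to 478 genes rose and 366 to 800 fell (the counts moved by over 1.5 times when wild-type replicate 1 was left out, at 199 and 366, wild-type replicate 2, at 309 and 462, or knockout replicate 1, at 317 and 528). The changes then ran from -0.63 to -0.41 for Neurod1, -0.45 to -0.32 for Neurod2, -0.69 to -0.48 for Neurod6, -0.30 to -0.23 for Nhlh1, -0.17 to -0.04 for Nhlh2, 0.17 to 0.23 for Id1, -0.13 to -0.08 for Id2, 0.23 to 0.30 for Id3, 0.06 to 0.15 for Id4 and -0.23 to -0.15 for Tcf4.

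Calls were lost, at unchanged changes, by a prior variance without a trend (Neurod1 -0.51, Neurod2 -0.39, Nhlh1 -0.28, Id3 0.26, Tcf4 -0.19; 184 genes rose and 310 fell) and by testing each probe set on its own (Neurod1 -0.51, Nhlh1 -0.28, Id3 0.26, Tcf4 -0.19; 313 probe sets rose and 459 fell). Centring each array on its median left Tcf4 at -0.21 (limma adjusted p = 0.0529). The choroid plexus covariate gave Neurod1 -0.53, Nhlh1 -0.24, Id3 0.31 and Tcf4 -0.17, none past the threshold, with 288 genes up and 323 down. Without the arrays with Ttr above 10, 112 rose and 124 fell, and Neurod1 (-0.35), Neurod2 (-0.41), Neurod6 (-0.44), Nhlh1 (-0.26), Id3 (0.33) and Tcf4 (-0.20) did not pass, in a fit of 3 arrays. At a threshold of 0.01, 148 rose and 343 fell, without Neurod1 (-0.51), Nhlh1 (-0.28), Id3 (0.26) and Tcf4 (-0.19). At 0.1, 1023 rose and Id1 (0.20) joined them. The cause of each other change was not tested.

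Same-numbered arrays did not deviate together (correlations of 0.01, 0.03 and -0.13), and 0 of 6 arrays correlated best with their own number. With the replicate number as a block, Neurod2 stayed at -0.39 (limma adjusted p = 0.00447), and the block changed no call among the 10 genes, while among the marker lists it called 2 Purkinje cell, 4 meninges and 1 choroid plexus markers higher in knockout, each in place of 0.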

Other observations

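Markers of other cell types not yet described gave the following values. Of 4 measured unipolar brush cell markers, Eomes, a T-box factor of these cells, rose by 0.51 (SE 0.12, limma adjusted p = 0.0330). Calb2, which encodes calretinin and is not specific to these cells, fell by 0.64 (SE 0.12, limma adjusted p = 0.0116). Lmx1a (0.10) and Plcb4 (0.01) did not pass. With 1 array left out, Eomes passed in 2 of 6 fits, those lacking wild-type replicate 2 or knockout replicate 2 (adjusted p up to 0.133 in the others), and Calb2 in 5, missing the threshold without wild-type replicate 1 (limma adjusted p = 0.0641). Without the arrays with Ttr above 10, Eomes changed by 0.26 (limma adjusted p = 0.389) and Calb2 by -0.51 (limma adjusted p = 0.261), and the median of these markers went from 0.05 to -0.23. That median was 0.20 without knockout replicate 2 and -0.08 without knockout replicate 3. Of 7 measured oligodendrocyte lineage markers 1 fell and all 7 had lower knockout means (median -0.32). The median was -0.03 without the arrays with Ttr above 10, where 0 passed in limma. Without knockout replicate 2, 4 of them fell, Mbp and Sox10 as well as Mog among them, with a median of -0.46. Mog, a myelin protein gene, fell by 0.71 with all arrays (SE 0.18, limma adjusted p = 0.0415), passed in 2 of 6 fits with 1 array left out, those lacking wild-type replicate 3 or knockout replicate 2 (adjusted p up to 0.156 in the others), and changed by -0.24 without the arrays with Ttr above 10. Of 8 genes listed for inhibitory interneurons 1 rose and 1 fell (median 0.05). They were the homeobox genes Lhx5 (0.40, SE 0.08) and Lhx1 (-0.38, SE 0.05), which are not specific to interneurons. In the same list Gad1 and Tfap2b changed by 0.17 and 0.30 and did not pass (limma adjusted p = 0.155 and 0.0762). Lhx5 missed the threshold without wild-type replicate 2 or knockout replicate 1 (limma adjusted p up to 0.0588), whereas Lhx1 passed whichever array was left out. In this list 2 markers rose without knockout replicate 3, and 2 rose and 0 fell in limma without the arrays with Ttr above 10, where Lhx1 changed by -0.30 (limma adjusted p = 0.228). Of 4 measured Purkinje cell markers, all 4 had higher knockout means (median 0.10). Of these 0 passed in limma, and 1, Calb1, had an unadjusted p under 0.05 (change 0.16, limma adjusted p = 0.0577). In limma 1 was called higher in knockout with a robust prior, with dim genes left out, with array weights or at a threshold of 0.1. Pvalb, which encodes parvalbumin, changed by 0.36 (limma adjusted p = 0.281) and was the marker that passed without knockout replicate 1 (limma adjusted p = 0.0360) and without the arrays with Ttr above 10 (0.59, limma adjusted p = 0.0249). Of 6 microglia markers 0 passed in limma and 0 had an unadjusted p under 0.05.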
